A study of Peromyscus maniculatus and Peromyscus polionotus and Peromyscus maniculatus x Peromyscus polionotus with 18 samples.

Results

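The set described here holds 118 genes whose brain mRNA level differed at least 4-fold between 2 species of deer mice and which had no row in the table of allele counts from their F1 hybrids. A gene entered when its mean over the 6 libraries of a species was at least 5 TPM (a transcript level scaled to transcript length and to the library total), that mean was at least 4 times the mean of the other species, and its name, with case ignored, was not found among the allele counts. A row with no gene name, names that spreadsheet software had turned into dates, and the genes Iscu and Apoa4 were left out by the rule. Of 20731 named rows, 11213 reached 5 TPM in a species, 149 of these (1.33%) also differed 4-fold, and 118 (1.05%) met the whole rule. Of the 118 members, 63 were higher in Peromyscus maniculatus and 55 were higher in Peromyscus polionotus. The members were chosen by their species means, over all 12 parental libraries, and by their absence from the allele counts, so the species values below are a description and carry no test.

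The study measured whole-brain mRNA in 18 libraries from adult males of about 50 to 80 days of age, 3 in each of 6 groups. The animals were P. maniculatus, P. polionotus or F1 hybrids between them, and brains of each kind were taken at the end of a burrowing trial or of a control trial. Every animal, controls included, had gone through earlier trials in the sand-filled enclosures, and no group carried a transgene or a drug. The labels speak of individual animals, so each library was treated as 1 animal, and p-values measure the spread between these animals.

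P. polionotus, the oldfield mouse, digs long burrows with an escape tunnel, whereas P. maniculatus, the deer mouse, digs short and simple ones, and the species still interbreed. In a hybrid both parental copies of a gene share the same cells, and a read can be given to a parent only where the transcripts of the parents differ in sequence. Gene families with near-identical copies are hard for short-read quantification, because a read that matches several copies has to be shared among them or left out. Actins, histones, Mif and many genes known only by a locus number belong to such families, so their values are uncertain in the sense that reads of a copy may be counted for another.

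Libraries of the species lay apart on the first principal component, which held 68.3% of the variance, and 3 libraries lay apart from the others on the second (7.47%): P. maniculatus control 3, P. polionotus control 2 and P. polionotus burrowing 3. Without these 3 libraries the rule gave 120 genes, of which 111 were members. Markers of neurons, astrocytes, oligodendrocytes and microglia were present in every library. The 5 neuron markers summed to 1272 to 1440 TPM in P. maniculatus and 1386 to 1526 TPM in P. polionotus. In the same order, the astrocyte sums were separate, at 4050 to 4539 TPM against 3420 to 4047 TPM. Oligodendrocyte sums (2338 to 3131 against 2271 to 2550 TPM) and microglia sums (107 to 151 against 142 to 165 TPM) overlapped. Among markers of other tissues, Alb, Fga and Fgb (liver), Vil1, Cdh17 and Lgals4 (gut epithelium) and Dazl and Tnp1 (germ cells) stayed under 1 TPM in all 12 parental libraries, and Prm1 was at 0. The summed gut list was nevertheless 0.436 to 2.94 TPM in P. maniculatus and 19.2 to 26.1 TPM in P. polionotus, which came from the keratin Krt20, itself 1.09 ± 0.980 TPM (P. maniculatus) against 21.2 ± 2.58 TPM (P. polionotus). The summed liver list was 4.72 to 12.5 TPM against 1.40 to 4.09 TPM, and the germ cell list was 52.1 to 62.8 TPM against 32.7 to 41.6 TPM, in P. maniculatus and P. polionotus respectively. Apoa1 was the largest of the liver list, at 6.82 ± 3.03 TPM against 2.19 ± 1.03 TPM in the same order of species. Most of the germ cell list was Sycp3, at 54.99 ± 3.67 TPM against 36.2 ± 3.23 TPM. Ddx4 and Prm2 of that list also reached 1 TPM in at least 1 library. The pituitary sum too was separate, at 4.77 to 10.1 TPM against 2.68 to 4.64 TPM. The sums for skeletal muscle (20.2 to 25.9 against 20.5 to 25.5 TPM) and for skin and mucosal epithelium (10.8 to 18.9 against 11.3 to 16.9 TPM) overlapped. So did that for blood (2.72 to 3.66 against 3.22 to 3.86 TPM). The part of these marker differences in the values below was not tested. In whole-brain RNA, fewer cells of a type and less RNA per cell cannot be told apart.

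Genes with larger species differences more often had no row among the allele counts, a description in which the fold and the absence are those of the rule. Of genes with at least 5 TPM in a species, 24.7% of those that differed less than 1.5-fold had no such row, against 50.0% of those between 2-fold and 3-fold and 79.5% of those at or above 4-fold, Iscu and Apoa4 included in the last. The same order was seen within rows that carry a gene symbol, from 20.4% to 60.3%, and within rows named LOC and a number, from 68.4% to 95.2%. The level of a gene gave no such order: the share was 31.8% at 5 to 10 TPM, 22.9% at 20 to 50 TPM and 32.8% at 100 TPM and over. The 31 genes that met the level and fold but did have allele counts differed by a median of 6.04-fold, and the members by 9.03-fold.

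**Figure D1:**
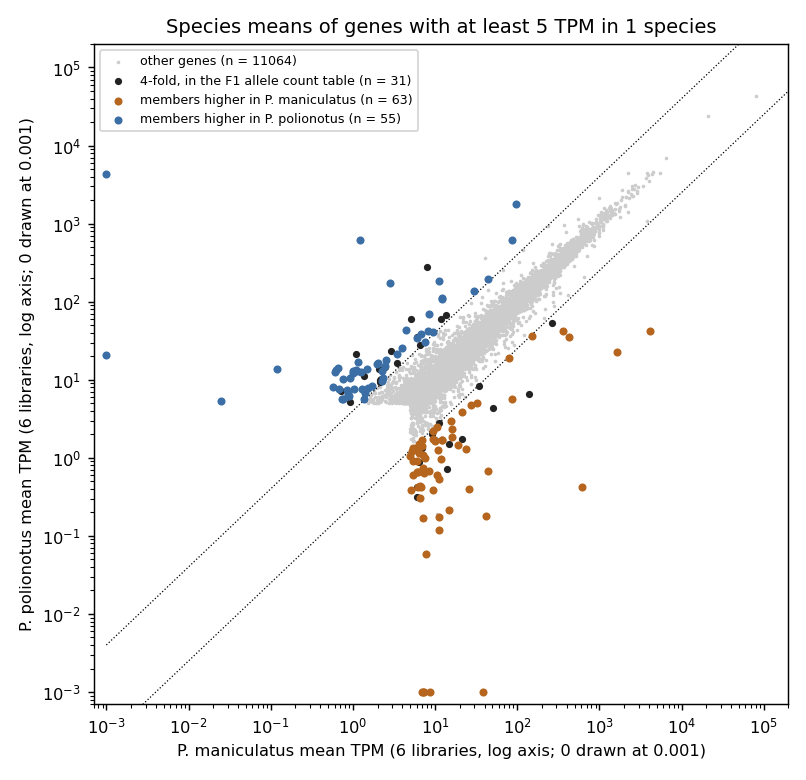
Mean TPM of each gene in 6 P. maniculatus libraries (x axis, log) against 6 P. polionotus libraries (y axis, log), for genes with at least 5 TPM in a species; dotted lines mark 4-fold. The 63 and 55 members lie outside the lines, and the 2 grey points there with no colour are Iscu and Apoa4, which the rule leaves out.

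**Figure D2:**
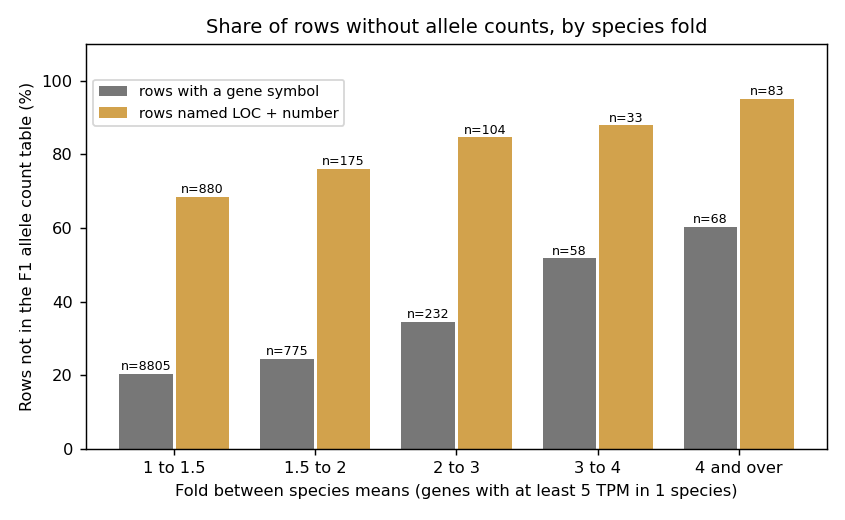
Percentage of genes with no row in the F1 allele count table (y axis) by the fold between species means (x axis), for rows with a gene symbol and rows named LOC and a number; n is the number of genes in each bar. Both kinds of row rise with the fold, symbols from 20.4% to 60.3% and LOC rows from 68.4% to 95.2%.

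Most members had no gene symbol. LOC names, which the annotation gives to genes without an assigned symbol, made up 79 of the 118 (66.9%), against 11.4% of all genes at that level. A RefSeq gene table of a P. maniculatus assembly matched 78 members by symbol or gene number (66.1%, against 89.2% of all named rows); 75 of the 78 were protein coding and 3 were pseudogenes. In 12 cases the gene number led to a symbol, among them Mif, Hes6, Cyp17a1, Cyp27b1, Cox6a2, Foxl3, Fcf1, Pabpc1l2b, Col20a1 and the linker histone H1-6, and these symbols are used below.

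The members higher in P. maniculatus had a median level of 9.47 TPM and a median difference of 9.68-fold. Summed over the 63, they took 7101 to 8619 TPM of a P. maniculatus library and 246 to 286 TPM of a P. polionotus library, and the 5 most abundant held 88.0% of that sum. In 19 of the 63 the P. polionotus mean was under 0.5 TPM, and 5 were listed at 0 in all 6 P. polionotus libraries. The members higher in P. polionotus had a median level of 13.6 TPM and a median difference of 8.10-fold. Together the 55 took 7944 to 10655 TPM of a P. polionotus library and 250 to 524 TPM of a P. maniculatus library, with 83.8% in the 5 most abundant. Only 4 of them had a P. maniculatus mean under 0.5 TPM. In 10 of the 118 members the libraries of the species overlapped, and in 108 they were separate. How many of all genes at that level had separate libraries was not counted. The rule used this contrast, in which 1.05% of genes met it. Nothing is read from these counts or from the separations named gene by gene below. With any 1 library left out, 112 to 117 of the members still met the rule.

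**Figure D3:**
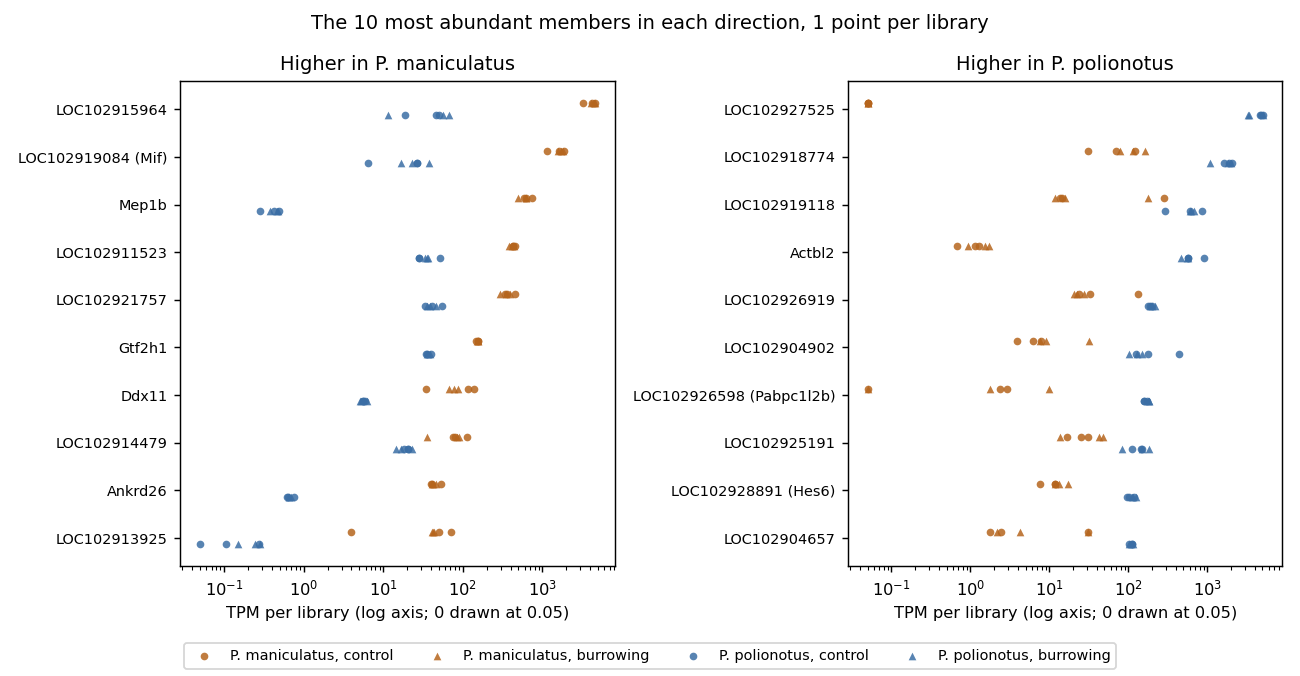
TPM in each of the 12 parental libraries (x axis, log; 1 point per library, circles for control and triangles for burrowing) of the 10 most abundant members in each direction. Brown P. maniculatus and blue P. polionotus points are separate in all 20 genes; LOC102927525 is drawn at the floor in P. maniculatus, and LOC102919118 comes closest to an overlap.

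Among secreted and cell-surface proteins, the widest separation was that of Mep1b, the beta subunit of the zinc metalloprotease meprin, best known from the brush border of kidney and intestine. It ranged over 492 to 743 TPM (median 622) in P. maniculatus and 0.286 to 0.497 TPM (median 0.444) in P. polionotus, a ratio of means of 1455. Every P. maniculatus brain was at or above 492 TPM and every P. polionotus brain below 1 TPM. Mif, a cytokine that also has tautomerase activity, ranged over 1129 to 1885 TPM (median 1663) in P. maniculatus and 6.39 to 37.3 TPM (median 24.6) in P. polionotus, 71.3-fold by means. Lypd3, a surface protein of the Ly6 and uPAR family, stood at 23.97 ± 2.23 TPM against 1.29 ± 0.542 TPM (mean ± SD, n = 6 each). The pancreatic-type protease Ctrl stood at 11.9 ± 5.58 TPM against 0.980 ± 0.326 TPM. The chemokine Ccl26 stood at 6.27 ± 0.814 TPM against 0.421 ± 0.0846 TPM. In these 3 genes the libraries of the species did not overlap.

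Cd38, Aanat and Ptges were higher in P. maniculatus at modest levels. Cd38, which breaks down NAD and is known for its part in oxytocin release, ranged over 6.28 to 8.31 TPM (median 7.05) in P. maniculatus and 0.922 to 1.34 TPM (median 1.06) in P. polionotus. Aanat, the enzyme that sets the rate of melatonin synthesis in the pineal gland, ranged over 4.13 to 7.09 TPM (median 4.73) and 0.781 to 1.34 TPM (median 1.08). Ptges, which makes prostaglandin E2, ranged over 1.23 to 10.8 TPM (median 6.42) and 0.331 to 0.945 TPM (median 0.638), and is taken up again with the trials below. None of these 3 genes overlapped between species. Cox6a2, the muscle-type isoform of a cytochrome c oxidase subunit, was at 9.47 ± 1.07 TPM against 0.387 ± 0.477 TPM.

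The groups of members by known function, here and below, were formed after their values were seen and were not tested as groups. Gtf2h1, the p62 subunit of the transcription and repair factor TFIIH, ranged over 147 to 155 TPM (median 153) in P. maniculatus and 34.03 to 39.4 TPM (median 36.2) in P. polionotus, so it was well expressed in both species with little spread in either. Ddx11, an iron-sulphur DNA helicase needed for sister chromatid cohesion, ranged over 34.8 to 137 TPM (median 82.9) and 5.06 to 6.25 TPM (median 5.54). Ankrd26, a protein of the centriole's distal appendages, ranged over 40.2 to 53.4 TPM (median 41.3) and 0.629 to 0.760 TPM (median 0.658). The transcription factor Klf13 ranged over 28.98 to 37.7 TPM (median 31.4) and 3.48 to 7.29 TPM (median 4.55). The libraries of the species were separate for Gtf2h1, Ddx11, Ankrd26 and Klf13, all higher in P. maniculatus, but only Gtf2h1 was above 30 TPM in both species. Other members with a role in the nucleus, such as Hes6, Rec8, Nemp2 and H1-6, were higher in P. polionotus and are described with that species. The rRNA-processing factor Fcf1 (row LOC107400666), the mitochondrial ribosomal protein Mrpl14 and the forkhead factor Foxl3 were lower, at 10.8 ± 2.42 TPM, 7.46 ± 0.952 TPM and 5.41 ± 2.24 TPM in P. maniculatus against 1.26 ± 0.418 TPM, 1.003 ± 0.249 TPM and 0.597 ± 0.347 TPM.

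Genes known mainly from germ cells were found in both directions. Zmynd15, a repressor in spermatids, and Ccer1, a spermatid gene, were higher in P. maniculatus, at 11.3 ± 2.11 TPM against 0.529 ± 0.169 TPM and 18.9 ± 5.78 TPM against 1.47 ± 0.594 TPM. Khdc3l, an oocyte protein, stood at 8.48 ± 2.43 TPM against 0.673 ± 0.598 TPM. Rec8, the meiotic cohesin subunit, was higher in P. polionotus, at 12.3 ± 6.44 TPM against 1.002 ± 0.167 TPM, as were the cancer/testis gene Ct55, at 14.2 ± 1.24 TPM against 0.666 ± 0.339 TPM, and H1-6, at 15.99 ± 2.69 TPM against 1.96 ± 0.362 TPM. Of the 6 germ cell markers, Prm1 was at 0 and Tnp1 and Dazl were under 1 TPM in every parental library. Ddx4, Prm2 and Sycp3 reached 1 TPM in at least 1 library. The summed germ cell list, most of it Sycp3, was higher in P. maniculatus, as given above.

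On the P. polionotus side the most abundant named member was Actbl2, a beta-actin-like gene. It ranged over 464 to 917 TPM (median 574) in P. polionotus and 0.675 to 1.70 TPM (median 1.21) in P. maniculatus, 505-fold by means, with P. polionotus control 2 the highest library. Pabpc1l2b, a poly(A)-binding protein gene, ranged over 159.9 to 184 TPM (median 178) and 0 to 9.81 TPM (median 2.06). Hes6, a basic helix-loop-helix factor that promotes neuronal differentiation, ranged over 95.8 to 127 TPM (median 113) and 7.67 to 17.1 TPM (median 11.8). No library of these 3 genes crossed between species. Rnf146, a ubiquitin ligase that reads poly(ADP-ribose), stood at 41.4 ± 5.60 TPM against 9.55 ± 1.17 TPM. Nemp2, a nuclear envelope membrane protein, stood at 10.3 ± 1.08 TPM against 0.760 ± 0.103 TPM, and Arl11, an ARF-like GTPase, at 10.4 ± 1.66 TPM against 0.930 ± 0.334 TPM.

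Cyp17a1, Cyp27b1 and Slc23a1 were higher in P. polionotus. Cyp17a1, which opens the path from progestagens to androgens, ranged over 5.44 to 16.5 TPM (median 13.9) in P. polionotus and 0.644 to 1.21 TPM (median 1.05) in P. maniculatus. Cyp27b1, which activates vitamin D, ranged over 6.38 to 12.3 TPM (median 7.24) and 0.110 to 1.01 TPM (median 0.586). Slc23a1, a vitamin C transporter, ranged over 12.5 to 20.2 TPM (median 17.4) and 0.882 to 1.27 TPM (median 1.19). The species were separate in each of these 3 genes, and no P. maniculatus library exceeded 1.27 TPM. Gpx2, the glutathione peroxidase of the gut lining, stood at 7.59 ± 1.14 TPM against 0.685 ± 0.256 TPM, and the intestinal mucin Muc2 at 7.62 ± 1.22 TPM against 1.27 ± 0.315 TPM. Both are gut genes, and the gut list had the difference in Krt20 given above while Vil1, Cdh17 and Lgals4 stayed under 1 TPM. The T cell coreceptor Cd8a was at 9.66 ± 0.391 TPM against 2.23 ± 0.787 TPM, the thymic proteasome subunit Psmb11 at 30.5 ± 1.96 TPM against 7.55 ± 2.74 TPM, and the growth factor Pgf at 6.72 ± 0.886 TPM against 1.41 ± 0.285 TPM.

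The highest values of all belonged to rows with LOC names, for which no function is given here. LOC102915964 ranged over 3238 to 4568 TPM (median 4319) in P. maniculatus and 11.5 to 67.2 TPM (median 47.95) in P. polionotus. LOC102927525 ranged over 3266 to 5044 TPM (median 4689) in P. polionotus, and its highest P. maniculatus value was 3.24e-06 TPM, so no fold is given. LOC102918774 ranged over 1078 to 2078 TPM (median 1875) in P. polionotus and 31.02 to 164 TPM (median 96.2) in P. maniculatus. These 3 rows held most of the summed level of the set, in opposite directions. LOC102903910 reached 24.9 to 50.6 TPM (median 41.6) in P. maniculatus and was listed at 0 in every P. polionotus library. LOC102920357 reached 11.6 to 34.4 TPM (median 18.6) in P. polionotus and was listed at 0 in every P. maniculatus library. For such genes no ratio is given, because TPM keep no depth and a listed 0 sets no limit; a floor of 0.1 TPM served only to rank members by ratio. Among the other rows of widest ratio, LOC102916214 ranged over 9.17 to 14.4 TPM (median 9.94) in P. maniculatus and 0.0552 to 0.214 TPM (median 0.106) in P. polionotus. LOC102903445 ranged over 3.76 to 6.36 TPM (median 5.51) in P. polionotus and 0 to 0.0853 TPM (median 0) in P. maniculatus, and LOC102916006 over 8.30 to 19.5 TPM (median 14.1) and 0 to 0.459 TPM (median 0). Among the other most abundant rows, LOC102911523 ranged over 378 to 450.3 TPM (median 426) in P. maniculatus and 28.5 to 51.4 TPM (median 34.3) in P. polionotus. LOC102914479 ranged over 35.96 to 113 TPM (median 82.2) and 14.3 to 23.2 TPM (median 19.5), and LOC102921757 over 289 to 452 TPM (median 354) and 33.9 to 54.5 TPM (median 39.9), in the same order of species. LOC102925191, higher in P. polionotus, ranged over 82.4 to 182 TPM (median 147) there and 13.7 to 48.6 TPM (median 28.04) in P. maniculatus.

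At the edge of the rule, the members nearest to 4-fold were LOC102920046 (4.03) and Gtf2h1 (4.14) on the P. maniculatus side and Psmb11 (4.05) and Trim75 (4.14) on the P. polionotus side. Just outside lay LOC102917381 (3.98) and Mis18a (3.88), and Myoz1 (3.99) and Capn12 (3.99). The ratio was at least 4 in the control animals alone for 110 members and in the burrowing animals alone for 110.

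The rule did not choose the relatives of the named members, so their species difference was tested gene by gene. The lists were drawn up with earlier results of these data known and can hold genes already seen to differ. Counts of calls within a list are therefore a description only. Over all 14366 genes tested, members included, 52.4% passed that test, 32.6% higher and 19.8% lower in P. polionotus. Across the 14248 tested genes that are not members, 52.0% passed the species test (limma on log2(TPM + 1), Benjamini-Hochberg adjusted p below 0.05), 4633 of them higher and 2778 lower; quantile normalization made that split 3772 and 3794. The 9 other TFIIH subunits, a list chosen after their values were seen, all lay within 0.51 log2 of equality; 5 were higher in P. polionotus and 2 were lower (3 lower under median scaling or quantile normalization), with a median log2 difference of 0.26 against 0.06 over all genes tested. The largest was Gtf2h3, at 31.6 ± 1.78 TPM (P. maniculatus) against 45.7 ± 6.41 TPM (P. polionotus) (log2 difference 0.51, SE 0.09, limma adjusted p = 6.50e-04). Of 4 actins tested beside Actbl2, 2 were higher in P. polionotus and 1 was lower, median 0.07, and under both other scalings 1 was higher and 2 were lower. Smooth muscle actin Actg2 was 42.1 ± 5.48 TPM (P. maniculatus) against 51.3 ± 6.40 TPM (P. polionotus) (log2 difference 0.28, SE 0.11, limma adjusted p = 0.0436), a call lost under median scaling (limma adjusted p = 0.106) and quantile normalization (limma adjusted p = 0.0968). Of the helicases related to Ddx11, 2 of 3 were higher in P. polionotus (1 of 3 under both other scalings), with a median log2 difference of 0.21, whereas Ddx11 was higher in P. maniculatus. Mep1b stood in 2 lists. Of its 2 tested relatives among the astacin proteases 1 was higher in P. polionotus and none lower (none higher under both other scalings). That 1 was Bmp1, 18.4 ± 1.83 TPM (P. maniculatus) against 21.7 ± 2.70 TPM (P. polionotus) (log2 difference 0.22, SE 0.08, limma adjusted p = 0.0403), which did not pass under median scaling (limma adjusted p = 0.0796) or quantile normalization (limma adjusted p = 0.0916). Of the 4 other genes tested on the intestinal and liver list, none was higher and 3 were lower in P. polionotus under all 3 scalings (median -0.76). Lower was also the direction of Mep1b, which shares a list and not a family with them. The most abundant of the 4, Ttr, leaned the other way and did not pass, at 1308 ± 111 TPM (P. maniculatus) against 1601 ± 298 TPM (P. polionotus) (log2 difference 0.28, SE 0.11, limma adjusted p = 0.0558). The bile acid ligase Slc27a5, which has allele counts, was 13.8 ± 2.16 TPM (P. maniculatus) against 0.712 ± 0.183 TPM (P. polionotus) (log2 difference -3.11, SE 0.11, limma adjusted p = 6.33e-09). Slc23a2, the main vitamin C transporter of neurons, was 30.3 ± 0.598 TPM (P. maniculatus) against 33.3 ± 2.70 TPM (P. polionotus) (log2 difference 0.13, SE 0.05, limma adjusted p = 0.0698) and did not pass the test.

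Among all genes of the pathway and family lists that are not members, 11 passed the test with a difference of more than 1 log2, 7 higher and 4 lower in P. polionotus. Since the lists were chosen with earlier results of these data known, nothing is read from that count or its split. Besides Slc27a5, the lower ones were the lipoprotein Apoa1, at 6.82 ± 3.03 TPM (P. maniculatus) against 2.19 ± 1.03 TPM (P. polionotus) (log2 difference -1.27, SE 0.25, limma adjusted p = 0.00168), the proton pump subunit Atp6v1f, at 139 ± 13.9 TPM (P. maniculatus) against 6.56 ± 0.863 TPM (P. polionotus) (log2 difference -4.21, SE 0.09, limma adjusted p = 1.63e-10), and the aldehyde dehydrogenase Aldh3a1, at 51.2 ± 21.6 TPM (P. maniculatus) against 4.35 ± 0.614 TPM (P. polionotus) (log2 difference -3.05, SE 0.41, limma adjusted p = 1.16e-04). The higher ones were Krt20 (log2 difference 3.53, SE 0.27, limma adjusted p = 1.92e-06), Aldh1l2 (log2 difference 1.15, SE 0.07, limma adjusted p = 3.49e-07), Gstz1 (log2 difference 1.02, SE 0.07, limma adjusted p = 5.95e-07, or 0.95 under both other scalings), the galectins Lgals1 (log2 difference 1.18, SE 0.22, limma adjusted p = 9.14e-04), Lgals7 (log2 difference 1.15, SE 0.24, limma adjusted p = 0.00242) and Lgals12, and Lypd5. The lists of proton pump subunits, keratins, aldehyde dehydrogenases, galectins and glutathione transferases hold no member. Nor do those of fatty acid transport with bile acid ligases and of antigen presentation. Lypd5, of the same family as Lypd3, was 0.630 ± 0.250 TPM (P. maniculatus) against 3.85 ± 1.03 TPM (P. polionotus) (log2 difference 1.55, SE 0.16, limma adjusted p = 1.91e-05), the reverse of Lypd3. Among 5 galectins, the family to which Grifin is related, 4 were higher in P. polionotus (median 1.15) and none lower, or 1 lower under both other scalings, whereas Grifin itself was 15.7 ± 3.86 TPM in P. maniculatus against 2.93 ± 0.656 TPM. Lgals12 was 2.08 ± 1.27 TPM (P. maniculatus) against 13.5 ± 3.55 TPM (P. polionotus) (log2 difference 2.34, SE 0.23, limma adjusted p = 1.31e-05). At smaller differences, Sycp3, of the synaptonemal complex, was 54.99 ± 3.67 TPM (P. maniculatus) against 36.2 ± 3.23 TPM (P. polionotus) (log2 difference -0.59, SE 0.07, limma adjusted p = 3.43e-05), lower in the species where Rec8 was higher. Piwil1, a germ line Argonaute, was 12.5 ± 1.46 TPM (P. maniculatus) against 21.3 ± 1.87 TPM (P. polionotus) (log2 difference 0.73, SE 0.08, limma adjusted p = 2.35e-05).

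The spread between animals is given here as a description only. It comes from the same 12 libraries whose means chose the members, and a gene with erratic animals can pass a threshold on means through them, so nothing particular to the set is read from it. The median coefficient of variation in the higher species was 22.2% for the members, 9.07% for other genes without allele counts and 7.29% for genes with them. At 100 TPM and over the medians were 14.2%, 8.18% and 6.59%. A gap of at least 2 log2(TPM + 1) units between neighbouring animals of a species, a measure chosen after the values were seen, occurred in 12 of 118 members, against 0.312% of all genes at that level and 0.645% of the other genes without allele counts.

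**Figure D4:**
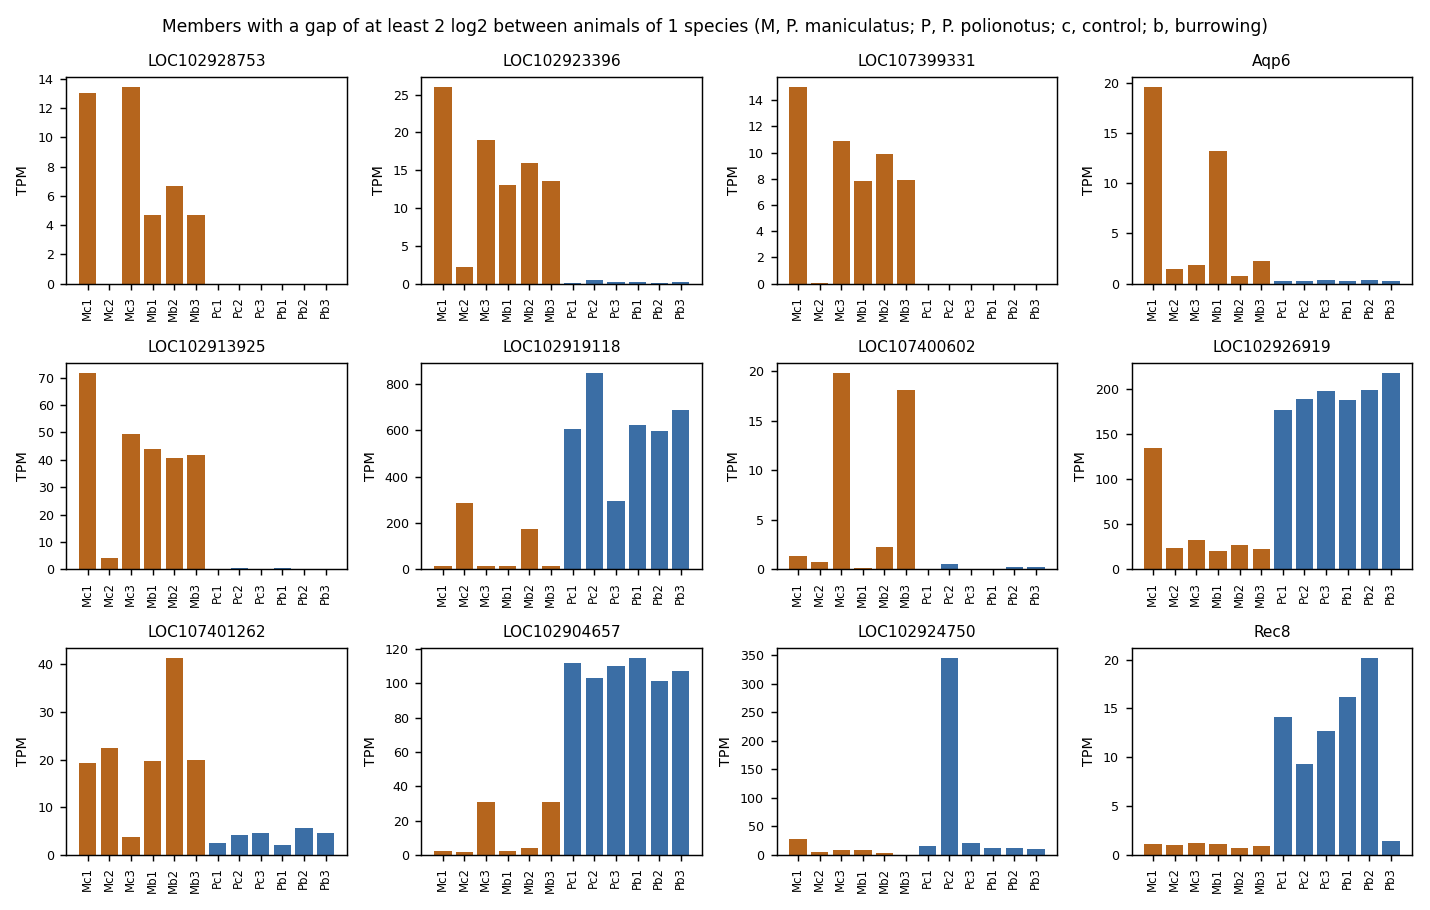
TPM in each parental library (y axis; 1 bar per library) for the 12 members with a gap of at least 2 log2(TPM + 1) units between animals of a species. P. maniculatus control 2 (Mc2) is lowest in LOC102928753, LOC102923396, LOC107399331 and LOC102913925, and P. polionotus burrowing 3 (Pb3) is lowest of its species in Rec8.

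P. maniculatus control 2 was the low animal in 4 of these genes at once. It was listed at 0 for LOC102928753, where the other P. maniculatus libraries held 4.67 to 13.5 TPM, and at 3.99 TPM for LOC102913925, where they held 40.8 to 71.9 TPM. It also had the lowest LOC102923396 (2.26 TPM), LOC107399331 (0.0147 TPM) and Ddx11 (34.8 TPM). Controls 1 and 3 were the 2 highest animals in all 5 genes. Other gaps set pairs of animals apart from the rest of their species. Aqp6, an intracellular aquaporin, was 19.6 TPM in control 1 and 13.2 TPM in burrowing 1 and at most 2.30 TPM in the other P. maniculatus animals. LOC102919118 was 285 TPM in control 2 and 176 TPM in burrowing 2, against 11.96 to 16.02 TPM in the rest. LOC107400602 and LOC102904657 were high in control 3 (19.9 and 30.7 TPM) and burrowing 3 (18.1 and 30.7 TPM). LOC102926919 was high in control 1 alone (135 TPM, the others at most 32.9 TPM), and LOC107401262 was low in control 3 alone (3.71 TPM, the others at least 19.3 TPM). In each case of a pair, both animals carried the same replicate number in the labels, which do not say what a number shares.

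In P. polionotus, burrowing 3 stood apart in Rec8, at 1.43 TPM where the other 5 ranged from 9.29 to 20.2 TPM, close to the P. maniculatus range of 0.739 to 1.17 TPM (median 1.04). The same animal was lowest in Klhl33, a BTB and kelch protein gene, at 2.93 TPM against 11.2 to 21.9 TPM, and highest in Rnase12, at 37.4 TPM. For Rnase12, P. polionotus control 2 was also high, at 22.8 TPM, and the remaining animals held 4.58 to 5.99 TPM. P. polionotus control 2 held 345 TPM of LOC102924750, where the other 5 held 10.2 to 20.7 TPM. Without that animal the mean of LOC102924750 in P. polionotus was 13.9 TPM, 1.63 times the 8.52 TPM of P. maniculatus, so this gene is a member through 1 library. It was not the only such member: without P. polionotus control 2, 115 of the 118 still met the rule.

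Some members lay next to each other in the gene order of the RefSeq assembly. Of the 78 placed members, 8 formed 5 pairs adjacent among the matched rows, and in all 5 the genes were higher in the same species. Pairs within the run given below share genes and are not independent. The direction comes from the contrast of the rule, and nothing is read from that count. Ddx11 adjoined LOC102913925, and both shared the low value of P. maniculatus control 2 given above. The rows LOC102915164, LOC102916204, LOC102916829 and LOC102910874 formed a run, all higher in P. polionotus and all highest in P. polionotus control 2, at 21.1, 18.5, 23.1 and 28.9 TPM. H1-6 adjoined LOC102928271.

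Genes beside a member that are not members themselves could be tested between species. A neighbour here was the nearest matched gene on either side with a mean of at least 1 TPM. Further members and rows of the member's own gene number were passed over, so other genes can lie between. Of these 145 genes, 80 passed the species test (55.2%, against 51.6% of the other matched genes), and 13 differed by more than 1 log2 (8.97%, against 3.44%). Fewer of the neighbours had allele counts (62.1%, against 73.0%), and larger species differences went with absence from the allele counts, as given above. The part of this in the shares was not tested. Of 83 relations in which the neighbour passed, 41 had the direction of the member. Ndufv2, a subunit of respiratory complex I beside Ddx11, ranged from 154 to 253 TPM (median 203) in P. maniculatus and from 58.7 to 65.6 TPM (median 62.1) in P. polionotus (log2 difference -1.71, SE 0.11, limma adjusted p = 3.89e-07). Its lowest P. maniculatus animal was again control 2 and its 2 highest were controls 1 and 3. Fgfbp1, which carries fibroblast growth factors and lies beside Cd38, was 2.63 ± 0.733 TPM (P. maniculatus) against 0.0790 ± 0.134 TPM (P. polionotus) (log2 difference -1.73, SE 0.13, limma adjusted p = 2.14e-06), while Bst1, the relative of Cd38 on its other side, was 4.73 ± 0.702 TPM (P. maniculatus) against 5.18 ± 0.906 TPM (P. polionotus) (log2 difference 0.11, SE 0.11, limma adjusted p = 0.432). Ndufv2 and Fgfbp1 were picked after their values were seen. For the members with a symbol among the 10 most abundant in each direction, all placed neighbours are given. Beside Pabpc1l2b, LOC102926290 was 275 ± 26.6 TPM (P. maniculatus) against 133 ± 13.3 TPM (P. polionotus) (log2 difference -1.04, SE 0.08, limma adjusted p = 2.18e-06), the reverse of Pabpc1l2b, and LOC102918306 differed by 0.02 log2 (limma adjusted p = 0.804). Beside Gtf2h1, LOC102915780 differed by -0.32 log2 (limma adjusted p = 1.02e-04), in the direction of Gtf2h1, and Luzp2 by -0.11 log2 (limma adjusted p = 0.177), which passed under median scaling (-0.16, limma adjusted p = 0.0297) and quantile normalization (-0.16, limma adjusted p = 0.0312). On the other side of the pair formed by Ddx11 and LOC102913925 from Ndufv2, Mtcl1 differed by -0.78 log2 (limma adjusted p = 1.72e-05), in the direction of Ddx11. Beside Mep1b, Garem1 passed in the reverse direction at 0.26 log2 (limma adjusted p = 0.00814), and Rnf138 differed by 0.14 log2 (limma adjusted p = 0.153). Beside Mif, Derl3 differed by 0.07 log2 (limma adjusted p = 0.649) and LOC102918160 by 0.17 log2 (limma adjusted p = 0.449). Beside Ankrd26, Rab18 differed by -0.02 log2 (limma adjusted p = 0.846) and Epc1 by 0.10 log2 (limma adjusted p = 0.229). Beside Hes6, Ilkap passed in the reverse direction at -0.27 log2 (limma adjusted p = 0.0346), and Per2 differed by 0.14 log2 (limma adjusted p = 0.0531). Both lie near the threshold: Ilkap did not pass when P. maniculatus control 2 or 3 or burrowing 1 or 2, or P. polionotus control 1 or 3 or burrowing 1 or 2, was left out (limma adjusted p from 0.0530 to 0.0785), and Per2 passed without P. maniculatus control 3 or burrowing 2 or P. polionotus control 1 (limma adjusted p from 0.0220 to 0.0497).

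For 3 members the gene number of the RefSeq table also led to a second row of the TPM table. Gtf2h1 was one of them: the row LOC102916087, to which RefSeq gives the symbol Gtf2h1, ranged from 59.7 to 65.0 TPM in P. maniculatus and from 56.7 to 65.3 TPM in P. polionotus (log2 difference -0.06, SE 0.04, limma adjusted p = 0.29). The row named Gtf2h1 thus differed 4.14-fold where the row with its RefSeq number did not pass the test. Under median scaling and quantile normalization that second row did pass, at -0.13 (limma adjusted p = 0.0188) and -0.12 (limma adjusted p = 0.0374), a difference in the same direction and still far below that of the row named Gtf2h1. The second row of Jagn1, a gene of the early secretory pathway, was 12.8 ± 2.51 TPM (P. maniculatus) against 6.35 ± 5.08 TPM (P. polionotus) (log2 difference -1.18, SE 0.40, limma adjusted p = 0.0285), with the P. polionotus animals spread from 1.92 to 12.7 TPM. The row named Fcf1 was 3.32 ± 0.410 TPM (P. maniculatus) against 3.59 ± 0.311 TPM (P. polionotus) (log2 difference 0.09, SE 0.06, limma adjusted p = 0.264), where the member LOC107400666 differed 8.57-fold. Which row holds the gene's reads could not be settled from the files.

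The label of the set, absence from the allele counts, holds by name and not in every case by gene number. For Ddx11, Gtf2h1 and Muc2 a LOC row with the RefSeq number of the gene was present in the hybrid table, and leaving these out gives 115 members. For Gtf2h1 that row was LOC102916087, by name the second row described above and not the member row. Rows of the same number need not hold the same transcript as the row of the TPM table. In these rows the share of counts given to the polionotus allele differed widely between single hybrid animals, beyond the 95% Wilson intervals, which cover counting error only. For Ddx11 it was 18.7% (17.5 to 20.1) and 17.6% (16.5 to 18.8) in F1 control 1 and control 2, of 3533 and 4525 counts, and 57.1% to 66.0% in the other 4 animals. The maniculatus allele of Ddx11 stood at 252 and 296 CPM (counts scaled to the animal's total of allele counts) in those 2 animals and at 17.003 to 33.4 CPM in the others, while the polionotus allele stood at 32.97 to 63.3 CPM in all 6. For Muc2 the share was 93.7% to 95.9% in control 1, burrowing 1 and burrowing 2, of 95 to 242 counts, and 51.3% to 54.7% in the rest. For LOC102916087, the row with the number of Gtf2h1, it was 86.7% in control 1 and 89.2% in burrowing 1, 37.3% in burrowing 2 and 48.8% to 50.8% in the other 3. No share was tested between the trials, since animals of a group differed this much.

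**Figure D5:**
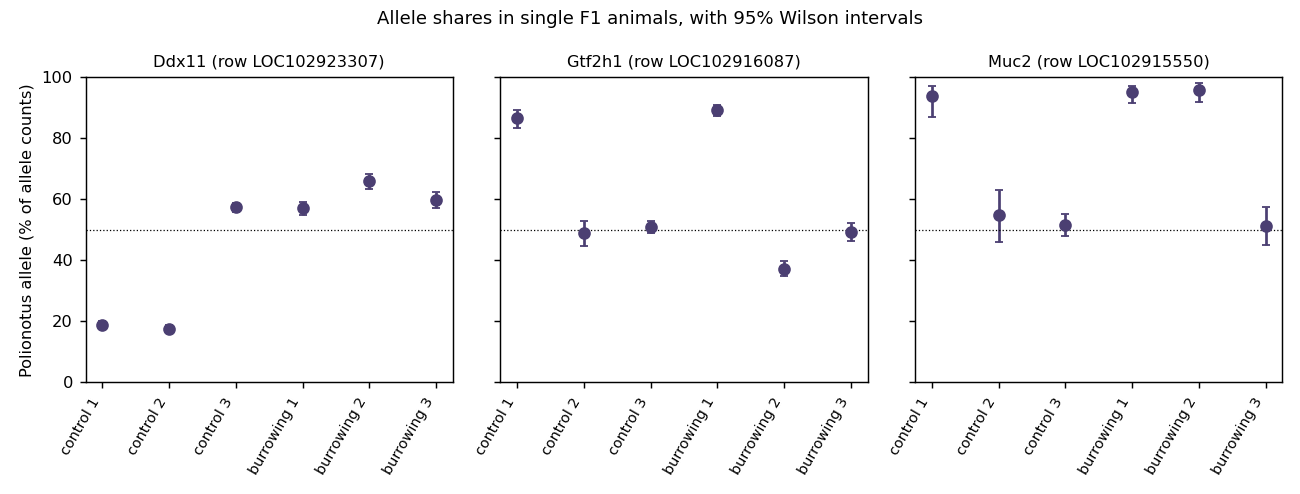
Share of allele counts given to the polionotus allele (y axis, %) in each F1 animal (x axis) for the count-table rows that carry the RefSeq gene number of Ddx11, Gtf2h1 and Muc2; points are single animals and bars are 95% Wilson intervals. Ddx11 is near 18% in control 1 and control 2 and at 57% to 66% elsewhere, and Muc2 is above 93% in 3 animals and near 50% in 3. The Gtf2h1 panel shows LOC102916087, which is not the member row.

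Between burrowing and control trials the members changed in 1 gene. All 118 members were among the 14366 genes tested (mean of at least 1 TPM over the 12 libraries), and the trial played no part in the rule except through the species means. Ptges, the synthase of prostaglandin E2, rose in P. maniculatus after burrowing: the control animals held 2.55, 2.61 and 1.23 TPM and the burrowing animals 10.8, 10.3 and 10.2 TPM. The groups did not overlap, and the log2 change was 1.91 (SE 0.17, limma adjusted p = 0.0036). It was the only gene of all tested that passed in P. maniculatus (0.00696%). Its control mean was 2.13 TPM, so Ptges reached the 5 TPM of the rule through its burrowing libraries, and this trial difference is not independent of the rule. In P. polionotus it held 0.629, 0.331 and 0.648 TPM in controls and 0.945, 0.592 and 0.752 TPM after burrowing, a log2 change of 0.20 (SE 0.17, limma adjusted p = 0.998). The difference between the species' trial changes was -1.70 (SE 0.24, limma adjusted p = 0.296), so a difference was not shown; it passed with a pseudocount of 5 (limma adjusted p = 0.00377) and without P. maniculatus control 3 (limma adjusted p = 0.0335). The call was lost with a pseudocount of 0.1 (limma adjusted p = 0.0859) and in a fit of the P. maniculatus libraries alone (limma adjusted p = 0.394). Without P. maniculatus control 2, the animal listed at 0 for it, LOC102928753 passed in the other direction, with a fall of -1.18 (SE 0.12, limma adjusted p = 0.0134) against 0.10 (SE 0.78, limma adjusted p = 1.0) with all libraries.

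In P. polionotus no member and no gene passed (0.0% of all tested), while 6 members and 446 genes (3.1%) had an unadjusted limma p below 0.05. The members of smallest p were Klf13, with a log2 change of 0.38 (SE 0.14, limma adjusted p = 0.998), and Cyp17a1, at 0.61 (SE 0.25, limma adjusted p = 0.998), upward, and LOC102927525, at -0.33 (SE 0.13, limma adjusted p = 0.998), and Nemp2, at -0.20 (SE 0.08, limma adjusted p = 0.998), downward. Without P. polionotus burrowing 3, LOC102927525 passed, at -0.53 (limma adjusted p = 0.0299). In P. maniculatus 8 members were under that unadjusted level, against 2.03% of all genes; Cd38 at 0.23 (SE 0.09, limma adjusted p = 1) and Aanat at 0.35 (SE 0.13, limma adjusted p = 1) were among them. Averaged over the species, Ptges alone passed (0.00696% of all genes), with a log2 change of 1.05 (SE 0.12, limma adjusted p = 0.0408), and 9 members were under the unadjusted level, against 2.06%. That averaged call was lost when any 1 of the 9 libraries other than a P. maniculatus control was left out (limma adjusted p from 0.0688 to 0.199), with quantile normalization (limma adjusted p = 0.0780) and with a pseudocount of 0.1 (limma adjusted p = 0.265). For the species by trial interaction no gene passed (0.0%), and 3 members were under the unadjusted level, against 2.89%. After Ptges these were LOC102904902, at -1.82 (SE 0.74, limma adjusted p = 0.992), and Aanat, at -0.43 (SE 0.19, limma adjusted p = 0.992). The median size of the trial change was 0.16 log2 for members and 0.05 for all genes in P. maniculatus, and 0.13 against 0.07 in P. polionotus. The spread of the members between animals, given above, also exceeded that of other genes, and its part in these sizes was not tested.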

How the data were processed

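Poly(A) RNA of whole brains was sequenced from 12 parental and 6 F1 animals. The authors deposited TPM for the parents and allele-resolved counts for the hybrids. Alignment used STAR 2.4.2a, per the submitters' processing notes. Genome build, annotation, strand setting, TPM tool and allele assignment stand as not given in the sources used here. TPM columns were tied to samples by title, with species codes read from the hybrid columns. TPM sums were 977912 to 983476; a row without a gene name, left out, held 0.789% to 2.48%. Hybrid allele counts totalled 11415175 to 53906964 per animal. TPM hold no depth, and precision comes from the spread between animals.

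Members and gene lists were chosen with earlier results of these data known. Trial contrasts, and species contrasts of other genes, used limma 3.58.1 (R 4.3.3, mean trend, 1 mean per group, two-sided) on log2(TPM + 1), with a minimum mean of 1 TPM and Benjamini-Hochberg adjustment over all genes tested. This scale understates changes of low genes. In simulated data 98 genes were changed by 1 log2 and 102 by 2 log2, among 14361 genes. In the P. maniculatus trial contrast 87.8% of those changed by 1 log2 were recovered. With that many changed genes the adjustment is milder than where 1 gene passed. The share is therefore no measure of power for the real contrast. Named by rule were the 10 most abundant members and the 6 of widest ratio in each direction (floor 0.1 TPM for ranking), the 2 on each side of the fold threshold, members of the lists or in adjacent pairs, and those called or of smallest p between trials; other symbols were added by known function after their values were seen. Gene numbers and order came from RefSeq assembly HU_Pman_BW_mat_3.1, without coordinates, since the files' build is unknown. Alternatives covered pseudocount, filter, normalization, replicate block, rule thresholds and leaving out each library.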

Additional observations from a re-analysis of the deposited data

Results flagged for a closer look

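In 6 cases among the named members, 1 library stood far from the other 5 of its species, with a gap to the nearest library, as a share of the whole range, above Dixon's critical value. One group of 6 libraries, those of the species with the higher level, was looked at for each of the 52 named members. In groups chosen without regard to spread, chance gives about 1 in 20. That rate does not hold here, since 12 of the 52 members were among those named for a gap between animals seen in these libraries, 6 of them for that alone, LOC102924750 being among those 6. P. polionotus control 2 was the high library in 5 of the 6 cases. It held 917 TPM of Actbl2 where the others held 464 to 576 TPM (gap 0.752 of the range), 434 TPM of LOC102904902 against 101 to 175 TPM (0.777), 345 TPM of LOC102924750 against 10.2 to 20.7 TPM (0.969), 18.5 TPM of LOC102916204 against 9.51 to 12.5 TPM (0.664) and 23.1 TPM of LOC102916829 against 9.20 to 12.9 TPM (0.736). This library was also 1 of the 3 that lay apart on the second principal component, and the last 2 genes adjoin each other in the gene order. The sixth case was LOC102915964 in P. maniculatus control 3, at 3238 TPM where the others held 4076 to 4568 TPM (0.630), and this library too lay apart on that component.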

How the results depend on the processing

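One change of direction ended in a call: the P. maniculatus trial change of LOC102928753, 0.10 with all libraries, was -1.18 (limma adjusted p = 0.0134) without P. maniculatus control 2, and leaving out any library gave -1.18 to 0.75. No value called with all libraries changed direction under the alternatives run. The rule gave 66 genes at 8-fold, 215 with a mean of at least 2 TPM, 70 with at least 10 TPM and 117 to 124 with each library left out in turn. For the P. maniculatus trial, the count of members that passed went from 1 to 0 with a pseudocount of 0.1, with a mean of at least 5 TPM (which removes Ptges from the genes tested) and with only the groups compared; leaving out a library gave 1 to 2, the 2 without P. maniculatus control 2, which adds LOC102928753 as a fall. For P. polionotus, leaving out a library gave 0 to 1, the 1 without burrowing 3 (LOC102927525, -0.53, limma adjusted p = 0.0299). For the average of the species the count of 1 went to 0 with a pseudocount of 0.1, a mean of at least 5 TPM and quantile normalization, and leaving out a library gave 0 to 1. For the interaction the count of 0 went to 1 (Ptges) with a pseudocount of 5 (-1.06, limma adjusted p = 0.00377), and leaving out a library gave 0 to 1, the 1 without P. maniculatus control 3 (-1.48, limma adjusted p = 0.0335). The cause was not tested.

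Same-numbered control and burrowing animals deviated together in P. maniculatus (r = 0.254, 0.126 and 0.0994, each the highest for its number) but not in P. polionotus (0.0484, -0.0741 and -0.229), so the numbers were not taken as a pairing. With the replicate block the count for the average of the species was 0 (Ptges 1.05, limma adjusted p = 0.149), and 0 with a block within each species, an alternative added after the data were seen (limma adjusted p = 0.217). The block changed no other count of members called in a trial contrast.

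Of the species calls outside the set, 4633 were higher and 2778 lower in P. polionotus, and 3772 and 3794 after quantile normalization or 3730 and 3838 after median scaling, which moved the median of all genes from 0.06 to -0.00448 and -0.00892. Among 780 alternative ratios of named members, 1 moved by more than the spread between animals (LOC102919118, from 2.82 to 5.33 log2 with medians). Calls of relatives that changed under another scaling are given beside them above. Synonyms could not be matched, and gene numbers were used in their place.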
